A study of Mus musculus with 14 samples.

Results

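The Cyp3a family was followed in mouse liver through 8 genes, Cyp3a11, Cyp3a13, Cyp3a16, Cyp3a25, Cyp3a41a, Cyp3a41b, Cyp3a44 and Cyp3a59, chosen by name from a table of 43548 genes. Of these, 7 reached 1 FPKM in at least 3 libraries and entered the test, and Cyp3a16 did not. FPKM is a fragment count divided by the length of the transcript and the size of the library. Cyp3a57, the other gene of the family in the table, stayed at or below 0.348 FPKM in every library and is no member here.

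Cyp3a enzymes are heme-containing monooxygenases of the endoplasmic reticulum that oxidise steroids, bile acids and many drugs, with electrons passed on by the reductase Por. In hepatocytes their transcription is driven by the xenobiotic receptors PXR (gene Nr1i2) and CAR (gene Nr1i3), which pair with RXR and bind repeated hexamers close to AGGTCA. Cyp3a11 is the usual read-out of PXR in mouse liver, whereas Cyp3a41 and Cyp3a44 are known as genes of adult female liver, Cyp3a16 as a gene of fetal liver and Cyp3a13 as an intestinal as well as hepatic gene.

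All animals were C57BL/6 mice carrying floxed alleles of Cul3, the gene of a ubiquitin ligase scaffold, and all received an adeno-associated virus (AAV) through the tail vein. They ate CD or WD (control and Western diet) for 13 weeks before the virus and for 5 weeks after it. AAV-TBG-Null left the floxed gene in place (WT), and AAV-TBG-Cre expressed Cre from the hepatocyte promoter TBG to delete it (KO). The libraries, made from total liver RNA, number 3 for WT on CD, 3 for KO on CD, 4 for WT on WD and 4 for KO on WD. The labels give neither sex nor age and do not tie each library to its own animal, so every p-value below speaks of these libraries, whose spread may be technical.

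A few facts of the whole series bear on the family. The libraries read tags at the 3′ end of transcripts, at a rough 3601000 to 11022000 reads per library, so a level in FPKM divides such a tag count by a length it does not depend on. Levels were therefore compared between libraries for a gene, and between genes only as ratios within a library. The libraries also fell into 2 sets of unknown meaning: set 1 holds replicates 1, 3 and 4 of WT on CD, 3 and 4 of WT on WD and 1, 2 and 4 of KO on WD, and set 2 holds replicates 1, 2 and 3 of KO on CD, 1 and 2 of WT on WD and 3 of KO on WD. Since each genotype on CD lies in a single set, the effects of set and genotype there cannot be told apart. A fit with the set as a term takes the set effect from the WD libraries alone and carries it over to CD. Whether the set effect is the same on both diets was not tested. Cul3 itself ranged from 23.9 to 29.5 FPKM in WT and from 11.3 to 18.3 in KO on CD. On WD it ranged from 7.46 to 25.9 in WT and from 18.5 to 26.6 in KO. In KO it thus changed by -0.80 (log2) on CD and by 0.65 on WD, without passing (0.117 and 0.199 as limma adjusted p). Which exons were floxed is not stated in these sources, and a tag at the 3′ end may lie outside them, so Cul3 gives no check of the deletion. Gstm1, a glutathione S-transferase known as a target of NRF2, was at 1525 to 2584 FPKM in the 7 WT libraries and at 19767 to 34447 in the 7 KO libraries. The 6 hepatocyte markers summed to 6544 to 6905 FPKM in WT on CD, 7771 to 9747 in KO on CD, 5704 to 7886 in WT on WD and 6497 to 8667 in KO on WD. Sums in FPKM are relative and do not count cells.

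The 8 genes lie on mouse chromosome 5 (mm10). Cyp3a13 stands alone at chr5:137892932-137921619, and the other 7 lie between 145436309 and 146113287, with Cyp3a59 (plus strand) as the only one of the 8 not on the minus strand. By coding sequence the genes form close pairs and more distant branches. Cyp3a41a and Cyp3a41b had 99.9% identity, Cyp3a25 and Cyp3a59 97.5%, and Cyp3a11 and Cyp3a41a 95.2%, against 76.1% between Cyp3a11 and Cyp3a25. All 251 windows of 50 bases in the last 300 bases of the Cyp3a41a transcript also occur in Cyp3a41b, the pseudogene Cyp3a63-ps or both. Likewise all 251 windows of Cyp3a41b occur in Cyp3a41a, that pseudogene or both. Tags from these copies thus cannot be assigned to a single gene by sequence, and their split is uncertain. Some of these windows also occur in the pseudogene Cyp3a63-ps, so reads of it cannot be separated from those of the copies either. For Cyp3a44 the share of such windows found in another gene was 23.1%, for Cyp3a16 4.78% and for Cyp3a11 0.797%, and for Cyp3a13, Cyp3a25 and Cyp3a59 it was 0.

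The stretch from -250 to -111 before the RefSeq gene start (GRCm38.p6, 140 bases, written along each gene's own strand) is shown for the gene that held most of the family's FPKM in WT on CD, for the Cyp3a41 copy and for the close pair Cyp3a25 and Cyp3a59, since the 4 differed in how they moved. Capitals mark AGGTCA on either strand (TGACCT where it lies on the other strand).
Cyp3a11, chr5:145879965-145880104, minus strand: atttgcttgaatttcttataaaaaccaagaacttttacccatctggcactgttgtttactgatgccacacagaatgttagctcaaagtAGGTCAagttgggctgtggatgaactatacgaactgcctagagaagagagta
Cyp3a41a, chr5:145720247-145720386, minus strand: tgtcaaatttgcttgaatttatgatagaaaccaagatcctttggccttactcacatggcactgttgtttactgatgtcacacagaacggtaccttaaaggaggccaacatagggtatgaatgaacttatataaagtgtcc
Cyp3a25, chr5:146009729-146009868, minus strand: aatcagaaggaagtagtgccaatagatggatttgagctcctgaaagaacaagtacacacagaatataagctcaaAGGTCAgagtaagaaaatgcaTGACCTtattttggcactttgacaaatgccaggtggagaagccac
Cyp3a59, chr5:146079008-146079147, plus strand: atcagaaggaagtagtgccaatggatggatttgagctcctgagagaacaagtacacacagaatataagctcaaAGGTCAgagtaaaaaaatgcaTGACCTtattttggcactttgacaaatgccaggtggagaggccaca

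The Cyp3a25 and Cyp3a59 windows were 95.7% identical and each held AGGTCA at 2 places, starting at -176 and -155 in Cyp3a25 and at -177 and -156 in Cyp3a59. Cyp3a11 held it once, at -162, and Cyp3a44 once, whereas the windows of Cyp3a13, Cyp3a16, Cyp3a41a and Cyp3a41b held none. The windows of Cyp3a41a and Cyp3a41b were identical. Of 32851 RefSeq windows of this length, 7.99% hold AGGTCA on either strand. The variant AGTTCA occurs once each in the Cyp3a11, Cyp3a41a and Cyp3a41b windows and in 7.43% of all windows, and the core of the antioxidant response element, TGACNNNGC, in none of the 8 and in 4.86% of all. These matches describe letters and no binding was measured.

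Cyp3a11 (ENSMUSG00000056035) led the family in WT on CD at 3256, 3812 and 5129 FPKM. In KO on CD its values were 1578, 1554 and 516 FPKM. In WT on WD it was at 221, 28.6, 390 and 1555 FPKM, and in KO on WD at 174, 250, 165 and 316. All WT libraries on CD stood above all other libraries. WT on WD was the widest group, its highest library 54.4 times its lowest. The group means ran in the order WT on CD (4066 ± 962, SD, n = 3), KO on CD (1216 ± 606, n = 3), WT on WD (549 ± 687, n = 4) and KO on WD (226 ± 70.8, n = 4), and WT on WD overlapped both its neighbours, KO on CD and KO on WD.

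Cyp3a25 (ENSMUSG00000029630, chr5:145977194-146009618) is expressed in adult mouse liver as well. Its FPKM was 551, 582 and 740 in WT on CD, then 424, 471 and 136 in KO on CD. On WD its FPKM was 170, 33.1, 282 and 491 in WT, against 624, 686, 407 and 754 in KO. All but 1 of the KO libraries on WD thus reached the range of WT on CD, while KO on CD and WT on WD lay below it. The order of means was WT on CD (624 ± 101, SD, n = 3), KO on WD (618 ± 150, n = 4), KO on CD (344 ± 181, n = 3) and WT on WD (244 ± 194, n = 4), and each neighbour overlapped the next.

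Cyp3a59 (ENSMUSG00000061292, chr5:146079257-146113287), the near copy of Cyp3a25, followed another order. It stood at 6.31, 6.84 and 8.62 FPKM in WT on CD, against 25.8, 18.2 and 16.8 in KO on CD. On WD the WT libraries stood at 1.26, 1.82, 1.80 and 4.41 FPKM, against 9.25, 12.2, 14.2 and 11.4 in KO. All 7 KO libraries stood above all 7 WT libraries. The means ran from KO on CD (20.2 ± 4.85, SD, n = 3) through KO on WD (11.7 ± 2.05, n = 4) and WT on CD (7.26 ± 1.21, n = 3) to WT on WD (2.32 ± 1.41, n = 4), and no neighbours in this order overlapped.

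**Figure D1:**
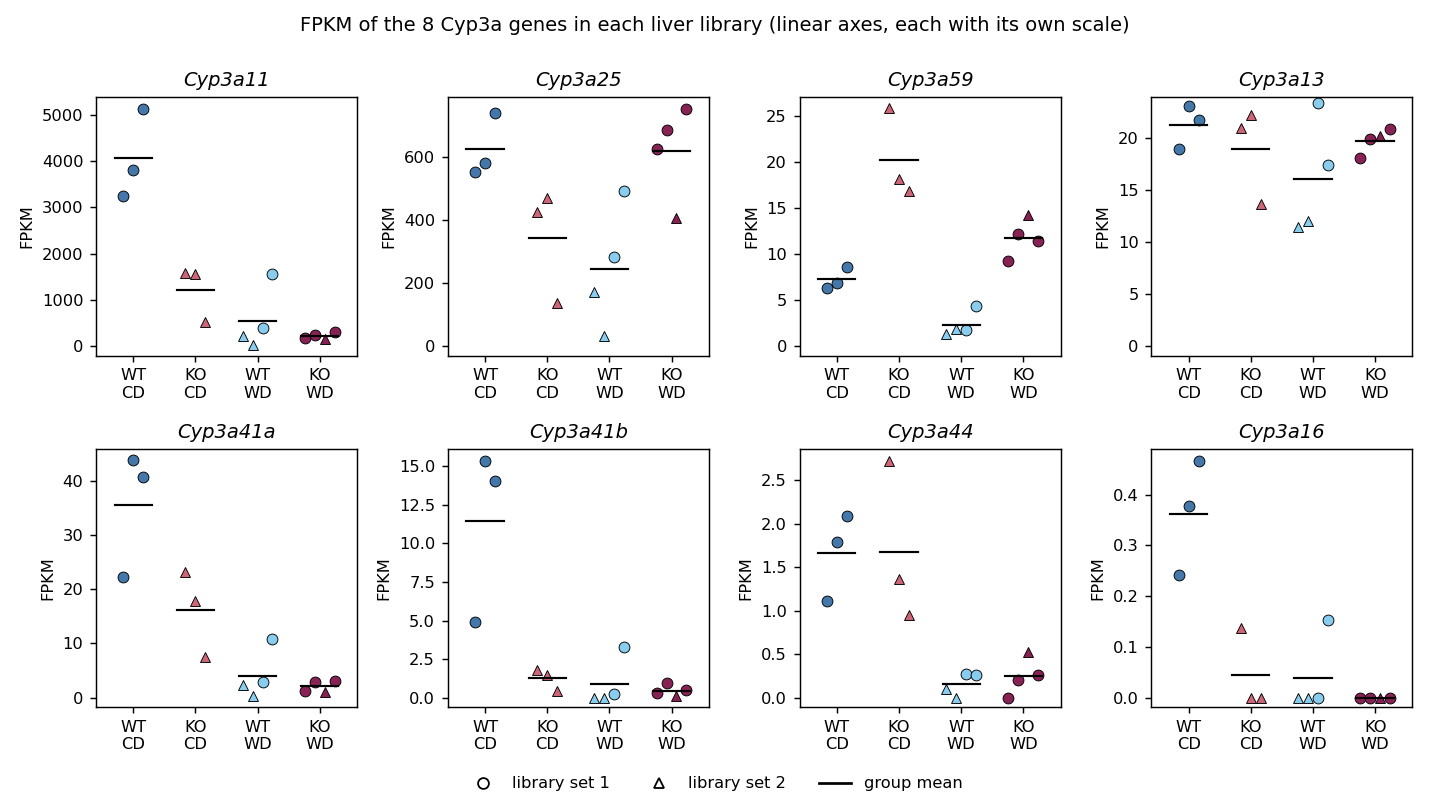
FPKM of each Cyp3a gene (linear y axes, one scale per gene) in the 14 libraries, grouped by genotype and diet on the x axis. Points are libraries (circles set 1, triangles set 2) and lines are group means. Cyp3a11 is highest in the 3 WT libraries on CD (3256 to 5129 FPKM), and Cyp3a59 is above 9 FPKM in all KO libraries and below it in all WT libraries.

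Cyp3a41a (ENSMUSG00000075551) measured 22.4, 43.8 and 40.7 FPKM in WT on CD, 23.2, 17.8 and 7.52 in KO on CD, 2.30, 0.377, 2.93 and 10.8 in WT on WD and 1.30, 2.91, 1.09 and 3.16 in KO on WD. Cyp3a41b (ENSMUSG00000075552, chr5:145558664-145584730) measured 4.90, 15.4 and 14.02 FPKM in WT on CD, 1.81, 1.502 and 0.450 in KO on CD, 0, 0, 0.260 and 3.26 in WT on WD and 0.279, 0.969, 0.0990 and 0.486 in KO on WD. Both copies were highest in WT on CD and low on WD in either genotype. The summed Cyp3a41 value does not depend on how tags were split between the copies, though it may still hold reads of Cyp3a63-ps. It was 47.1 ± 17.3 FPKM in WT on CD (SD, n = 3), 17.4 ± 8.66 in KO on CD (n = 3), 4.97 ± 6.15 in WT on WD (n = 4) and 2.58 ± 1.39 in KO on WD (n = 4). The sum did not overlap between WT and KO on CD, nor between the diets in either genotype, and it overlapped between WT and KO on WD.

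Cyp3a44 (ENSMUSG00000054417) was a low gene tied to CD. Its FPKM in WT on CD was 1.11, 1.80 and 2.09, against 2.73, 1.37 and 0.946 in KO on CD, which overlapped. On WD it was at 0.105, 0, 0.274 and 0.264 FPKM in WT, against 0, 0.204, 0.521 and 0.256 in KO, all below the CD libraries. At the rough depths above, 1 read is worth 0.0536 to 0.158 FPKM for this gene. The highest WD value, 0.521 FPKM, came from a library where 1 read is worth 0.0691, so the WD values rest on few reads, and a listed 0 can be a failed estimate.

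Cyp3a16 (ENSMUSG00000038656, chr5:145436309-145469723) stayed below 1 FPKM everywhere. It was at 0.241, 0.377 and 0.467 FPKM in WT on CD, 0.137, 0 and 0 in KO on CD, 0, 0, 0 and 0.153 in WT on WD and listed at 0 in all 4 KO libraries on WD. It was thus present in every WT library on CD and in 2 of the other 11. An exact two-sided permutation test over libraries gave p = 0.1 for KO against WT on CD and p = 0.05714 for WD against CD in WT. The test doubles the smaller tail, so each value is the smallest it can give with 3 against 3 and 3 against 4 libraries. Neither could fall under 0.05. In the limma fit without the filter on low values, Cyp3a16 was called lower in KO on CD (-0.38, limma adjusted p = 0.0136) and lower on WD in WT (-0.39, 0.0350), from levels of few reads.

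Cyp3a13 (ENSMUSG00000029727) kept its group means within 16.0 to 21.3 FPKM. It measured 19.0, 23.1 and 21.8 FPKM in WT on CD, 21.0, 22.3 and 13.6 in KO on CD, 11.5, 11.98, 23.3 and 17.4 in WT on WD and 18.0, 19.9, 20.1 and 20.8 in KO on WD. The groups overlapped in each of the 4 comparisons, and the lowest limma adjusted p for it was 0.374 among them. Its lowest libraries were WT on WD 1 and 2 and KO on CD 3, all of set 2.

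The family sum, the summed FPKM of the 8 genes, was 3861, 4484 and 5956 in WT on CD and 2077, 2086 and 692 in KO on CD. On WD it was 406, 75.9, 701 and 2083 in WT and 827, 972, 608 and 1106 in KO. The sum was highest in WT on CD (4767 ± 1076, SD, n = 3), where no other library reached it, and the means of KO on CD (1618 ± 802, n = 3), WT on WD (816 ± 882, n = 4) and KO on WD (878 ± 213, n = 4) overlapped in their libraries. Without Cyp3a11 the sum was 702 ± 114 in WT on CD, 402 ± 197 in KO on CD, 268 ± 204 in WT on WD and 652 ± 150 in KO on WD. No test was made on any sum, since the members were chosen with results known.

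The make-up of the sum shifted along with its size. Cyp3a11 held 84.3 to 86.1% of it in WT on CD, 74.5 to 76.0% in KO on CD, 37.7 to 74.7% in WT on WD and 21.1 to 28.6% in KO on WD. Cyp3a25 held 12.4 to 14.3%, 19.7 to 22.6%, 23.6 to 43.6% and 66.9 to 75.5% in the same order. In KO on WD, Cyp3a25 thus took the place of Cyp3a11 as the largest entry by FPKM in all 4 libraries. In WT on WD 2 its share of the FPKM was also above that of Cyp3a11 (43.6% against 37.7%). Such shares depend on the transcript lengths by which tags were divided, 2344 bases for Cyp3a11 and 2000 for Cyp3a25. The close order in WT on WD 2 therefore does not give the order of their tags. WT on WD 2, whose sum was the lowest, was the only library where a gene other than these was above 5% of the sum, Cyp3a13 with 15.8%.

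**Figure D2:**
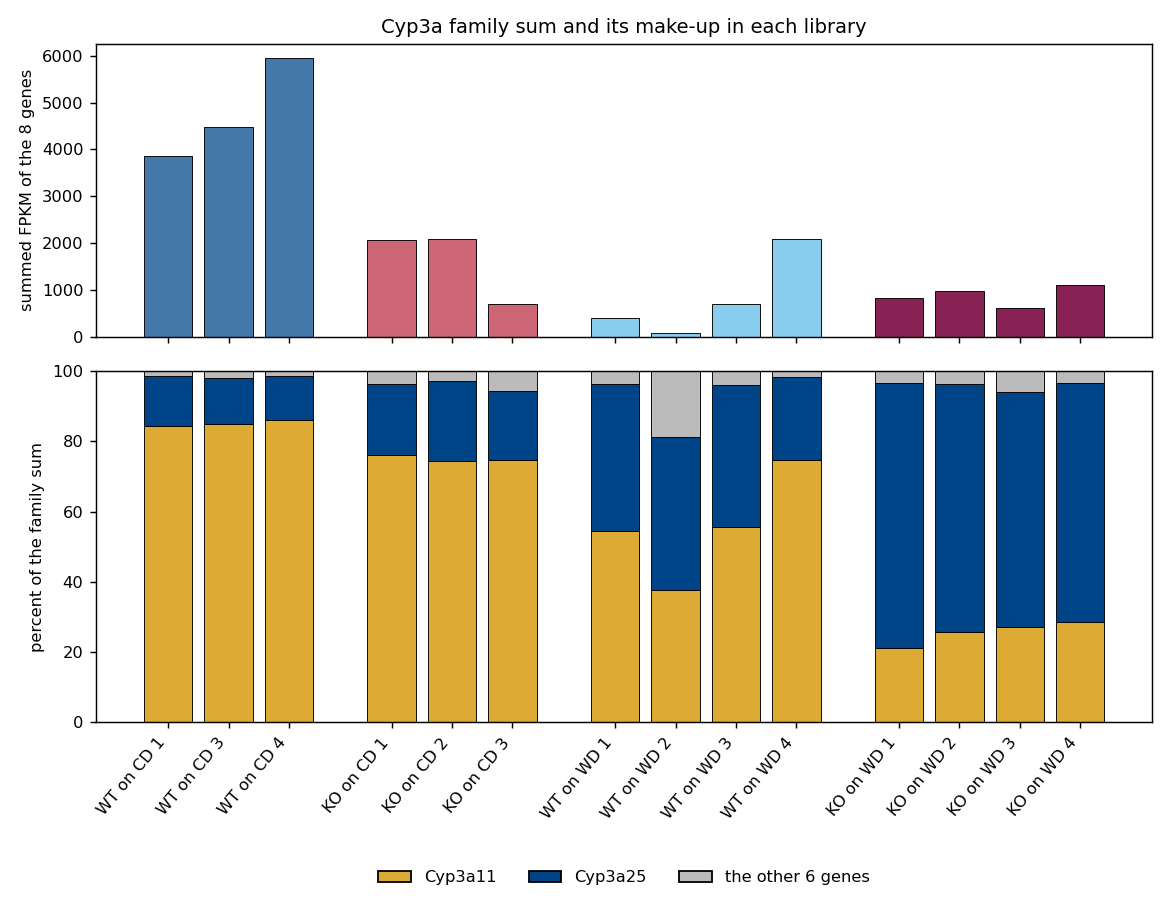
Top, summed FPKM of the 8 Cyp3a genes in each library (bars from 0, coloured by group). Bottom, percent of that sum held by Cyp3a11, Cyp3a25 and the other 6 genes. Cyp3a11 falls from 84.3 to 86.1% in WT on CD to 21.1 to 28.6% in KO on WD, where Cyp3a25 holds 66.9 to 75.5%.

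A ratio of 2 genes within a library does not depend on the transcript lengths when it is compared across libraries. Cyp3a25 as a percent of Cyp3a11 was 16.9, 15.3 and 14.4 in WT on CD and 26.9, 30.3 and 26.4 in KO on CD. On WD it was 77.0, 116, 72.3 and 31.6 in WT and 358, 275, 246 and 239 in KO. The 4 groups did not overlap, and the KO libraries on WD of set 1 (239 to 358) and of set 2 (246) overlapped. Cyp3a59 as a percent of Cyp3a25 was 1.15, 1.18 and 1.17 in WT on CD and 6.08, 3.86 and 12.3 in KO on CD. On WD it was 0.743, 5.49, 0.638 and 0.897 in WT and 1.48, 1.77, 3.49 and 1.51 in KO. The close pair thus kept nearly 1 ratio among the WT libraries on CD and not among the others, and WT on WD 2, low in Cyp3a25, stood within the range of the KO libraries.

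**Figure D3:**
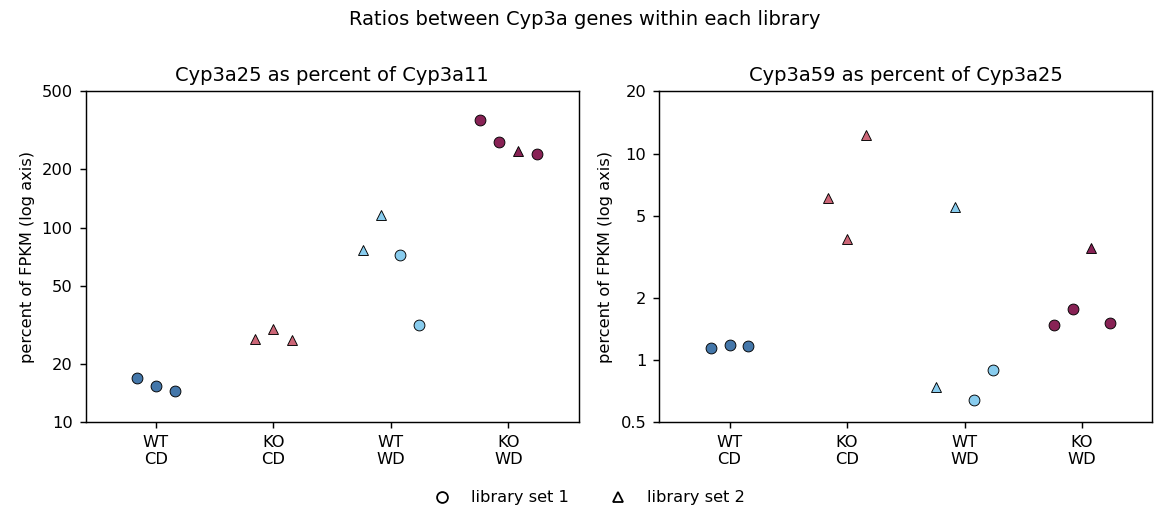
Left, FPKM of Cyp3a25 as a percent of Cyp3a11, and right, of Cyp3a59 as a percent of Cyp3a25, in each library (log y axes, groups on the x axis, circles set 1 and triangles set 2). The left ratio rises without overlap from 14.4 to 16.9% in WT on CD to 239 to 358% in KO on WD, while the right one is 1.15 to 1.18% in WT on CD and 3.86 to 12.3% in KO on CD.

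KO was compared with WT on CD to ask what loss of Cul3 did to the family in mice on the control diet. Cyp3a59 rose, by 1.35 ± 0.29 (SE) on the log2(FPKM + 1) scale, on which every fold change below is given (limma adjusted p = 0.0112). Cyp3a41b fell by 2.38 ± 0.53 (limma adjusted p = 0.0126), a call that rests on the uncertain split from Cyp3a41a and on a gene that passed the filter mainly through the WT group. Cyp3a11 changed by -1.88 ± 0.99 (limma adjusted p = 0.198), Cyp3a41a by -1.17 ± 0.62 (0.205) and Cyp3a25 by -1.04 ± 0.74 (0.344), none of which passed, although the Cyp3a11 and Cyp3a25 groups did not overlap. Thus 1 of 7 tested members was called up and 1 down, where 15% of all 10870 tested genes were called, 11.7% up and 3.35% down. Cyp3a11, Cyp3a16, Cyp3a25 and Cyp3a41b were lower in KO without overlap and Cyp3a59 higher, against 14.9% of tested genes lower and 26.7% higher without overlap.

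The median change of the 7 members on CD was -1.04, against 0.18 over all tested genes. The family sum differed by -1.70 on the log2 scale. With the library set as a term Cyp3a59 kept its size (1.55, limma adjusted p = 0.0899) without passing, Cyp3a41b stood at -1.48 (0.330) and Cyp3a11 at 0.21 (0.955), and the family sum turned to 0.171. These values on CD rest on a set effect taken from the WD libraries. The Cyp3a59 call held in 19 of 21 alternative settings, all but the 2 set terms. Without WT on WD 2, a library that enters only through the shared spread, Cyp3a11 passed on CD at the same size (limma adjusted p = 0.0415), and Cyp3a41b was lost without WT on CD 3 (0.0562) or KO on CD 3 (0.0592) and with a pseudocount of 0.1 (0.0767). Macrophage markers, which hepatocytes lack, summed to 47.3 to 77.2 FPKM in WT and 96.2 to 196 in KO on CD (8 of 8 markers detected), and endothelial markers to 41.9 to 49.5 and 72.0 to 91.6 (5 of 5). Limma called 1 of 7 tested macrophage markers and 2 of 5 endothelial markers up and 0 down, where 11.7% of all tested genes were called up. The macrophage marker Adgre1, near 0 in all libraries, was lower in KO on CD. Their part in these differences was not tested. In bulk liver, fewer cells of a type and less RNA per cell cannot be told apart. The hepatocyte marker sum was 7771 to 9747 FPKM in KO on CD and 6544 to 6905 in WT on CD, without overlap. In that comparison 26.7% of tested genes were higher without overlap. Among the markers Ttr (0.58), Serpinc1 (0.47) and Alb (0.47) had rising estimates and Apoa1 a falling one (-0.56), and limma called 0 of 6. The part of cell make-up was not tested.

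KO was next compared with WT on WD. Cyp3a59 rose by 2.01 ± 0.25 (SE), from 2.32 to 11.7 FPKM (limma adjusted p = 3.34e-04), higher in all 4 KO libraries than in any WT library. It was the only one of 7 tested members called, where 7.01% of all tested genes were called, 6.01% up and 1% down, and the only one without overlap, against 11.6% of tested genes higher and 2.17% lower. No member was called down, nor did any fall at an unadjusted p under 0.05 in limma. Cyp3a25 changed by 1.84 ± 0.64 (limma adjusted p = 0.105), its highest WT library, WT on WD 4 at 491 FPKM, lying above its lowest KO library, KO on WD 3 at 407.

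Cyp3a11, the largest of the family by group mean in WT, changed by -0.20 ± 0.85 between the genotypes on WD (limma adjusted p = 0.911). An error of this size leaves room for a fall and for a rise, as WT on WD alone spanned 28.6 to 1555 FPKM. Cyp3a41a changed by -0.35 ± 0.54, Cyp3a41b by -0.10 ± 0.46, Cyp3a44 by 0.09 ± 0.23 and Cyp3a13 by 0.34 ± 0.22, with limma adjusted p from 0.374 to 0.920. The median member changed by 0.09, against 0.23 over all tested genes.

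The Cyp3a59 call on WD held in all 21 alternative settings tried, with limma adjusted p no higher than 0.00182 and a log2 change of 1.72 to 2.43. Within set 1 the WT libraries were at 1.80 and 4.41 FPKM and the KO libraries at 9.25 to 12.2. Within set 2 the WT libraries were at 1.26 and 1.82 FPKM and the single KO library at 14.2. The Cyp3a25 change passed only without WT on WD 4 (2.35, limma adjusted p = 0.0375), and the family sum, 0.897 on the log2 scale, turned to -0.329 within set 1. Within set 2 it went the other way, with 75.9 and 406 FPKM in the WT libraries and 608 in the single KO library. Macrophage marker sums were 73.7 to 151 FPKM in WT and 165 to 306 in KO on WD. Limma called 4 of 7 tested macrophage markers up and 0 down there, where 6.01% of all tested genes were called up. The part of these cells was not tested.

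**Figure D4:**
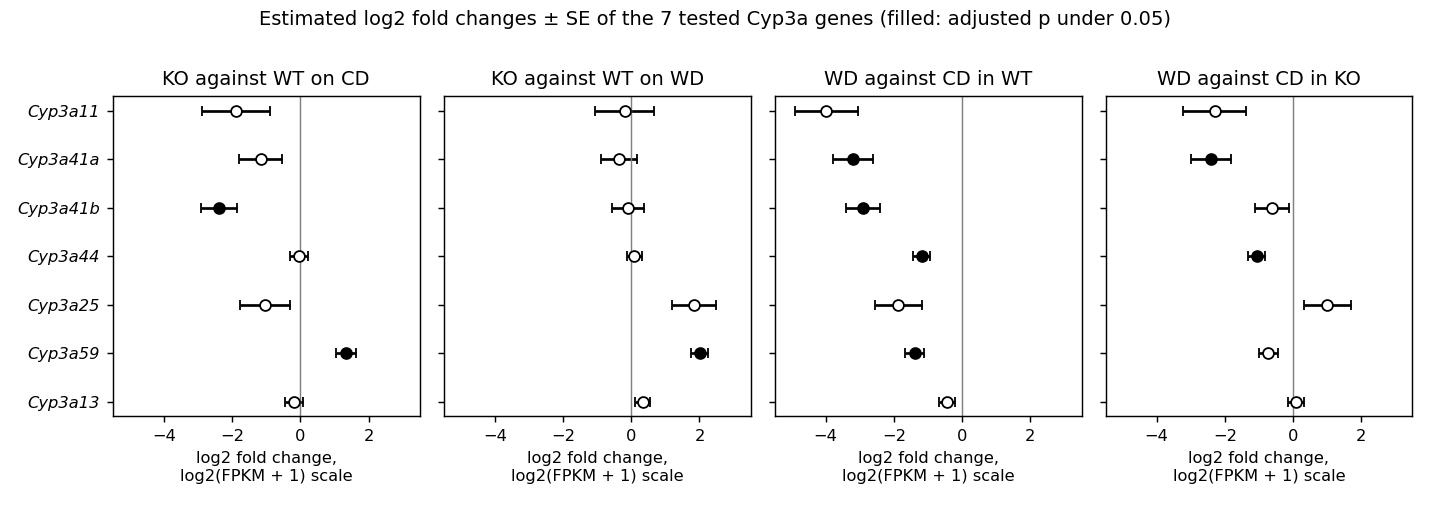
Log2 fold changes on the log2(FPKM + 1) scale (x axis) of the 7 tested Cyp3a genes in 4 comparisons, with bars of 1 SE from limma; filled points have an adjusted p under 0.05. Cyp3a59 is up in KO on both diets (1.35 and 2.01), and all 7 estimates are below 0 for WD against CD in WT.

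WD was compared with CD within each genotype. In WT all 7 estimates were negative, with a median of -1.88 against 0.04 over all tested genes. Cyp3a41a fell by 3.21 ± 0.58 (SE, limma adjusted p = 0.0181), Cyp3a41b by 2.89 ± 0.50 (0.0125), Cyp3a59 by 1.39 ± 0.27 (0.0268) and Cyp3a44 by 1.19 ± 0.25 (0.0350). Cyp3a11 had the largest estimate, -3.99 ± 0.92, and did not pass (limma adjusted p = 0.0543), and Cyp3a25 changed by -1.88 ± 0.69 (0.209). So 4 of 7 tested members were called down and 0 up, where 1.3% of all tested genes were called, 0.635% down and 0.662% up; at an unadjusted p under 0.05 limma gave 6 down and 0 up. Cyp3a41b and Cyp3a44 passed the filter almost only through CD libraries, so their calls add little to that count.

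The libraries on WD stood below all those on CD in WT for every member but Cyp3a13, against 6.28% of tested genes lower and 9.22% higher without overlap. Within set 1, Cyp3a11 was at 390 and 1555 FPKM in WT on WD against 3256 to 5129 on CD, Cyp3a41a at 2.93 and 10.8 against 22.4 to 43.8, and Cyp3a59 at 1.80 and 4.41 against 6.31 to 8.62. With the set as a term only Cyp3a41b passed (-2.44, limma adjusted p = 0.0443), next to Cyp3a41a (-2.59, 0.0506), Cyp3a59 (-1.29, 0.0906), Cyp3a44 (-1.20, 0.0906) and Cyp3a11 (-2.94, 0.161). No member passed without WT on CD 3 or WT on CD 4. Cyp3a41a was also lost without WT on WD 1 (limma adjusted p = 0.0591), Cyp3a59 without WT on CD 1 or WT on WD 1, 2 or 3 (0.0561 to 0.0787), and Cyp3a44 without WT on CD 1, KO on CD 2, KO on WD 2 or 4 or any library of WT on WD (0.0510 to 0.0920). With the sets assigned instead by a placeholder value of another gene, Yam1, which exchanges KO on WD 3 and 4 between them (an alternative chosen after the data were seen), no member passed (lowest limma adjusted p = 0.0628, for Cyp3a41b). Cyp3a44 was lost with a pseudocount of 0.1 (0.0642) and Cyp3a59 without the filter on low values (limma adjusted p = 0.0506). Cyp3a11 passed with median centring (-4.00, limma adjusted p = 0.0472), without WT on WD 2 (-2.96, 0.0406) and without WT on WD 4 (-4.87, 0.00744).

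In KO, WD lowered Cyp3a41a by 2.40 ± 0.58 (SE, limma adjusted p = 0.0336) and Cyp3a44 by 1.07 ± 0.25 (0.0296). These were 2 of 7 tested members called down, with 0 up (0 up and 4 down at an unadjusted p under 0.05 in limma), where 6.38% of all tested genes were called, 2.55% down and 3.83% up. Cyp3a44 reached 1 FPKM only in CD libraries (3 of WT and 2 of KO), so it passed the filter through the diet where it is high and its call adds little to that count. Cyp3a11 changed by -2.30 ± 0.92 (limma adjusted p = 0.121), Cyp3a59 by -0.73 ± 0.27 (0.104), Cyp3a41b by -0.61 ± 0.50 (0.447), Cyp3a13 by 0.08 ± 0.24 (0.856) and Cyp3a25 by 1.0 ± 0.69 (0.360). Cyp3a11, Cyp3a41a, Cyp3a44 and Cyp3a59 were lower on WD without overlap, against 10.4% of tested genes lower and 16.5% higher without overlap.

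With the set as a term Cyp3a41a passed (-3.33, limma adjusted p = 0.0363) and Cyp3a44 did not (-1.05, 0.179), with 3 of 4 KO libraries on WD in set 1 and those on CD all in set 2. With the sets assigned by the placeholder neither passed (-2.91 and 0.144 for Cyp3a41a, -1.17 and 0.182 for Cyp3a44, limma adjusted p). Cyp3a41a was also lost with a pseudocount of 0.1 (limma adjusted p = 0.0544) and without the filter (0.0690), and Cyp3a44 with that pseudocount (0.0539). Both calls in KO were lost in 5 of the fits that left out 1 library (KO on CD 1 or 2, KO on WD 1, 2 or 4), with limma adjusted p between 0.0555 and 0.112. Cyp3a11 passed without WT on WD 2 (limma adjusted p = 0.0199), and Cyp3a59 without WT on WD 4 (0.0486) and with median centring (0.0473).

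The difference of the KO effect between the diets was tested as an interaction. limma called 0 of 7 members, against 0.34% of all tested genes (0.221% up and 0.12% down), and 2 were at an unadjusted p under 0.05. These were Cyp3a25, with a difference of 2.88 ± 0.98 (SE, adjusted p = 0.0954), and Cyp3a41b, with 2.29 ± 0.71 (limma adjusted p = 0.0802). Both passed without WT on WD 4 (0.0395 and 0.0275 by limma), a fit that called 1058 of all tested genes in place of 37. With the library set as a term neither passed, at 0.84 for Cyp3a25 (limma adjusted p = 0.960) and 1.16 for Cyp3a41b (0.915). The rise of Cyp3a59 differed by 0.66 ± 0.39 between the diets (limma adjusted p = 0.289).

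Genes that act on or with the family were described from lists. Nr1i2, encoding PXR, measured 4.05, 6.69 and 10.4 FPKM in WT on CD and 13.7, 12.4 and 16.7 in KO on CD, where it rose by 0.99 ± 0.28 (SE, limma adjusted p = 0.0338; 0.330 once the set was a term). Its WD libraries were at 7.68 to 9.29 FPKM in WT and 5.77 to 10.3 in KO, which overlapped. Its level was thus highest in KO on CD, a group where Cyp3a11 lay below every WT library of the same diet. Nr1i3, encoding CAR, was at 24.4 to 31.0 FPKM in WT and 38.0 to 43.7 in KO on CD, and at 21.3 to 25.4 in WT and 29.5 to 37.3 in KO on WD. It did not overlap between genotypes on either diet, where 26.7% of tested genes on CD and 11.6% on WD were higher in KO without overlap. It did not pass (limma adjusted p = 0.0549 on CD and 0.0594 on WD). Of 15 tested regulators of PXR and CAR signalling, 2 rose on CD in KO (Nr1i2 and the corepressor Ncor1, 1.04) and 1 fell (Nr1h4, the bile acid receptor FXR, -0.92), with a list median of 0.29. The 11.7% of all tested genes called up and 3.35% called down in that comparison lie near these shares. On WD, KO against WT gave 0 calls among the 15 in limma, where 7.01% of all tested genes were called. At an unadjusted p under 0.05 in limma, 3 of the 15 were up and 1 down.

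Por, the electron donor, measured 176, 263 and 381 FPKM in WT on CD and 701, 474 and 732 in KO on CD, and rose by 1.26 ± 0.33 (SE, limma adjusted p = 0.0249; 0.310 once the set was a term). Its WD libraries were at 168 to 329 FPKM in WT and 172 to 343 in KO. Por was thus highest in KO on CD, above every library of the other groups, and in KO it fell from CD to WD by 1.25 ± 0.31 (limma adjusted p = 0.0377). Of 13 tested genes of electron supply and heme synthesis, 2 rose on CD in KO (Por and the ferrochelatase Fech, 0.99), and on WD 1 rose (Pgrmc1, a heme-binding partner of P450 enzymes, 0.83), where 11.7% and 6.01% of all tested genes were called up, so these counts lie near the background.

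Other known targets of PXR and CAR were described beside Cyp3a11. Of 17 tested, 13 rose and 0 fell in KO on CD, with a median of 1.14, and 7 rose and 0 fell in KO on WD, with a median of 0.48. The all-gene medians were 0.18 and 0.23, and the all-gene shares called up were 11.7% and 6.01%. Once the set was a term, 6 of the 17 rose on each diet, where 102 of all 10870 tested genes were called up on CD and 730 on WD. The targets with the smallest p on CD, without that term, were the glutathione S-transferases Gstm1 (4.0), Gstm2 (3.88), Gstm3 (5.72) and Gsta1 (4.77). These are also known NRF2 targets, so the list does not isolate PXR or CAR. From CD to WD in WT, 3 of the 17 fell and 0 rose: Slco1a4, an organic anion carrier (-2.71), Cyp2c29 (-1.88) and Cyp2a5 (-1.82). Of all tested genes 0.635% were called down and 0.662% up there. From CD to WD in KO, 6 of the 17 fell and 0 rose, against 2.55% and 3.83% of all tested genes. Cyp2c55 (-1.65), among the 6, reached 1 FPKM only in KO on CD. It passed the filter through the group where it is high, so it adds little to the counts of any comparison with that group. With the set as a term 2 fell in WT and 3 in KO, where 42 and 24 of all 10870 tested genes were called down. Cyp2b10, the usual read-out of CAR, missed the filter: it was at 0.326 to 1.49 FPKM in KO on CD, at most 0.0747 in WT on CD and listed at 0 in all 8 libraries on WD.

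Genes that differ by sex in adult mouse liver were described because Cyp3a41, Cyp3a44 and Cyp3a16 are among those known from females. Of 11 other female-biased genes tested, 5 rose and 0 fell in KO on either diet, among them the steroid hydroxylase genes Cyp17a1 on CD (3.15) and Cyp2a4 on WD (2.69). Cux2 (4.31) and Nipal1 (1.47), also called up on CD, reached 1 FPKM only in KO libraries. They passed the filter through the genotype where they are high, so their calls add little to that count. Of 23 male-biased genes, 14 fell and 1 rose on CD, and 13 fell and 3 rose on WD, where 3.35% and 1% of all tested genes were called down. The smallest p on both diets was that of the elongase Elovl3 (-3.75 on CD and -3.37 on WD), while the steroid dehydrogenase gene Hsd3b5 had larger falls (-4.89 and -3.51). Elovl3 and Hsd3b5 passed the filter mainly through WT libraries. With the set as a term 3 and 5 of the female-biased genes rose on CD and WD, where 102 and 730 of all 10870 tested genes were called up. With that term 9 and 14 of the male-biased genes fell, where 24 and 112 of all tested genes were called down. Cyp3a41a, Cyp3a41b and Cyp3a44 were not called up in KO on either diet. Among the pericentral hepatocyte genes, the zone in which Cyp3a11 is known to be most abundant, 2 of 10 rose and 3 fell in KO on CD, and 1 rose and 4 fell in KO on WD, where 11.7% and 3.35% of all tested genes on CD and 6.01% and 1% on WD were called up and down.

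Across the 14 libraries, Cyp3a11 resembled Cyp3a41a most among the members (Pearson r of log2(FPKM + 1) 0.97), then Cyp3a41b (0.87) and Cyp3a44 (0.80). It resembled Cyp3a25 less (0.62) and Cyp3a59 least (0.32), and the near copies Cyp3a25 and Cyp3a59 gave 0.48. Outside the family the most similar genes, out of 4669 whose mean reached 5 FPKM, were Gls2 (0.93), Gsta3 (0.91) and Slc7a2 (0.91) for Cyp3a11, Tmem30b (0.97) and Itih2 (0.96) for Cyp3a25, and Zcchc11 (0.95), Akr1c19 (0.94), Setd4 (0.94) and Cdc14b (0.94) for Cyp3a59. These coefficients describe libraries that share group, diet and library set, and the Cyp3a41 value carries the uncertain split of reads.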

How the data were processed

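Liver RNA of 14 libraries in 4 groups was made into stranded QuantSeq 3′ FWD libraries and sequenced on a NovaSeq, per the labels' protocols. The authors deposited FPKM per gene and library; per the submitters' processing notes Cufflinks and mm10 were used, with no version stated. The sources used here give no aligner, annotation release, read totals or treatment of reads matching several genes; the rough depth was read from the most frequent value of low genes, which held 12.4 to 17.9% of them. FPKM sums were 443818 to 523079, and 8600 to 9970 genes reached 1 FPKM per library. The highest correlation between libraries was 0.958, so none were copies.

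The test ran on log2(FPKM + 1) of genes reaching 1 FPKM in 3 or more libraries, with limma 3.58.1 (R 4.3.3; eBayes with trend, 10 residual degrees of freedom, 1 fit over all groups, two-sided), with Benjamini-Hochberg adjustment over all 10870 tested genes and calls under 0.05; the fit was tested on simulated data. This scale understates changes of low genes. Cyp3a16, below the filter, had an exact permutation test and entered limma only in the alternative without a filter. Gene Yam1, holding a placeholder, was left out. The 2 library sets came from clustering pairs of libraries by how many sparse genes (values in no more than 8 libraries) share 1 FPKM ratio. The median share was 7.08% for pairs inside set 1, 4.78% inside set 2 and 2.63% across, and single pairs overlapped. KO on WD 3 and 4 change sets by the Yam1 placeholder.

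Positions and transcripts came from GENCODE M21 (mm10), upstream windows from RefSeq (GRCm38.p6), matched for all 8 genes. Of 150 list genes 149 were matched. The members and lists were chosen with earlier results of these data known. Named genes were all members, up to 4 genes of a list with the smallest p in a comparison, the genes most similar to each member, and Nr1i2, Nr1i3 and Por; Cyp2b10 and Cyp3a57 were named after their values were seen. The alternatives were another pseudocount, no filter, 2 scalings, the library set (also by the placeholder, added after the data were seen), a replicate block and leaving out each library.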

Additional observations from a re-analysis of the deposited data

Results flagged for a closer look

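In WT on WD, replicate 4 stood apart from the other 3 libraries in 2 low genes: Cyp3a41b measured 3.26 FPKM there against at most 0.260 in the others, and Cyp3a16 measured 0.153 FPKM against 0 in the others. The gap to the next library exceeded Dixon's 95% value in both. For Cyp3a16 any value above 0 would exceed it beside 3 values of 0, so that flag adds nothing. For Cyp3a41b 2 of the other values were listed at 0. Of 17 groups of values examined, 2 were picked out, and chance picks out about 1 in 20. The same library also had the highest Cyp3a11 and Cyp3a25 of its group. At the rough depth of that library 1 read of Cyp3a16 is worth 0.0621 FPKM, so 0.153 FPKM rests on few reads.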

How the results depend on the processing

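Of the values of single members under the alternatives, 668 kept their side of the threshold, 57 calls were lost, 10 were gained and 0 of the called ones changed sign. The number of members called on CD in KO, 2, became 1 with a pseudocount of 0.1, 0 with the library set as a term and 0 with the set by the placeholder, and 1 to 3 without single libraries; without a filter it was 3, Cyp3a16 included. On WD in KO, 1 became up to 2 without single libraries (range 1 to 2). For WD against CD in WT, 4 became 1 with the set, 0 with the placeholder set, 3 with a pseudocount of 0.1, 5 with median centring, 4 without a filter (Cyp3a16 included, Cyp3a59 lost) and 0 to 4 without single libraries. For WD against CD in KO, 2 became 0 with a pseudocount of 0.1, 1 without a filter, 1 with the set, 0 with the placeholder set, 3 with median centring and 0 to 3 without single libraries. The interaction gave 0 to 2 without single libraries.

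The family sum (log2 difference) went on CD from -1.70 to 0.171 with the set and -0.321 with the placeholder set, on WD from 0.897 to -0.329 within set 1, against 75.9 and 406 FPKM in WT and 608 in KO within set 2 (0.429 with the set as a term, 0.0298 without WT on WD 2 and 1.62 without WT on WD 4), for WD against CD in KO from -0.749 to -2.15 and -1.78 with the 2 sets (-1.28 without KO on CD 3 and -0.483 without KO on CD 2), and for the interaction from 2.60 to 0.257 and 0.873 (1.73 without WT on WD 2). The cause of these changes was not tested.

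Deviations of same-numbered libraries from their group means had correlations of -0.297 to 0.158. Between the diets in KO they were 0.0484, 0.0408 and 0.148, and each library there matched its own number best. These low correlations in small groups do not settle whether the numbers pair libraries. With the replicate block the members called for WD against CD went from 4 to 2 in WT and from 2 to 0 in KO.

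Over all tested genes the calls were 1633 on CD in KO (126 with the set, 586 with the block, 591 to 2466 without single libraries), 762 on WD in KO (457 with median centring, 442 to 801), 141 for WD in WT (76 with the set, 60 with the block, 40 to 141), 693 for WD in KO (38, 85 and 113 to 1767) and 37 for the interaction (2, 4 and 4 to 1058). Quantile normalization moved the all-gene median of KO on WD from 0.23 to -0.04 and the share of rises among calls from 77.7 to 55.0% on CD, from 85.7 to 52.7% on WD and from 60.0 to 42.0% for WD in KO. Depth limits Cyp3a16, Cyp3a44 and Cyp3a41b, where 1 read is worth up to 0.181, 0.158 and 0.149 FPKM.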
